A study of Mus musculus with 12 samples.

Results

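Retroperitoneal white fat (RWAT), the pad on the back wall of the abdomen beside the kidney, was compared with epididymal white fat (EWAT), the pad attached to the epididymis. Both count as visceral depots. The comparison holds the 3 libraries titled RWAT and the 3 titled EWAT, 6 of the 12 libraries of the series, and they were chosen by their titles alone. The other libraries, 3 of inguinal white fat (IWAT) and 3 of interscapular brown fat (BAT), entered the same model and are given where they help to place a level. Every library, in every depot, came from fat labelled as surgically denervated, taken from wild-type C57BL/6J males fed a high-fat diet and given as 6 to 10 weeks old. Intact fat was not analysed here, so each value describes denervated tissue, and the effect of denervation was not tested. The labels did not state that replicates came from separate animals, so p-values measure the spread between these samples, which may be technical.

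Fat depots arise from different embryonic territories and keep part of that origin in the transcription factors their cells express. T-box and homeobox proteins are DNA-binding regulators that mark position in the embryo, and their pattern persists in adult preadipocytes. Visceral pads are also covered by mesothelium, a sheet of epithelium-like cells whose developmental regulator is Wt1, and all pads hold adipocytes, fibroblast progenitors, macrophages, vessels and nerves.

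Total RNA depleted of ribosomal RNA had been sequenced as single-end reads of 75 bp, and the values are counts per 1000000 counts (CPM) on library sizes scaled by TMM, a method that sets the bulk of genes equal between libraries. The total expected counts were 20798169, 19380639 and 12933516 in RWAT 1 to 3 and 19220276, 18930927 and 21106554 in EWAT 1 to 3. Adipose markers were present in all 6 libraries, and epithelial markers of kidney, adrenal gland, epididymis and testis had few tested members, with 0 of 12 list memberships at an unadjusted edgeR p below 0.05. In bulk tissue, fewer cells of a type and less RNA per cell cannot be told apart.

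Several libraries stood apart from their group. RWAT 1 and RWAT 3 held skeletal muscle transcripts: the mean log2 CPM of 41 muscle genes was 3.89, 0.53 and 6.25 in RWAT 1 to 3, against -0.19, 0.06 and 0.02 in EWAT 1 to 3. RWAT 1 held few mesothelial transcripts, with a mean log2 CPM over 18 genes of -0.50, 1.96 and 2.61 in RWAT 1 to 3, against 2.04, 2.42 and 3.37 in EWAT 1 to 3. Its value lay nearer to those of IWAT, at 0.57, -0.08 and -0.41. EWAT 1 held few adipocyte transcripts, with a mean log2 CPM over 22 genes of 8.78, 7.11 and 8.59 in RWAT 1 to 3, against 5.31, 8.55 and 7.99 in EWAT 1 to 3. The share of counts from 7SL RNA, an abundant noncoding RNA of the signal recognition particle, was 2.76%, 2.07% and 7.82% in RWAT 1 to 3, against 1.40%, 15.3% and 3.12% in EWAT 1 to 3. Ucp1, the defining gene of brown fat, stood at 1489, 0.253 and 1.70 CPM in BAT 1 to 3, so 2 of the 3 BAT libraries lacked the level of that marker seen in BAT 1. Where leaving out 1 of the 6 RWAT and EWAT libraries moved a list median by over 1.5 times or changed its sign, the lowest or highest such value is given.

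**Figure D1:**
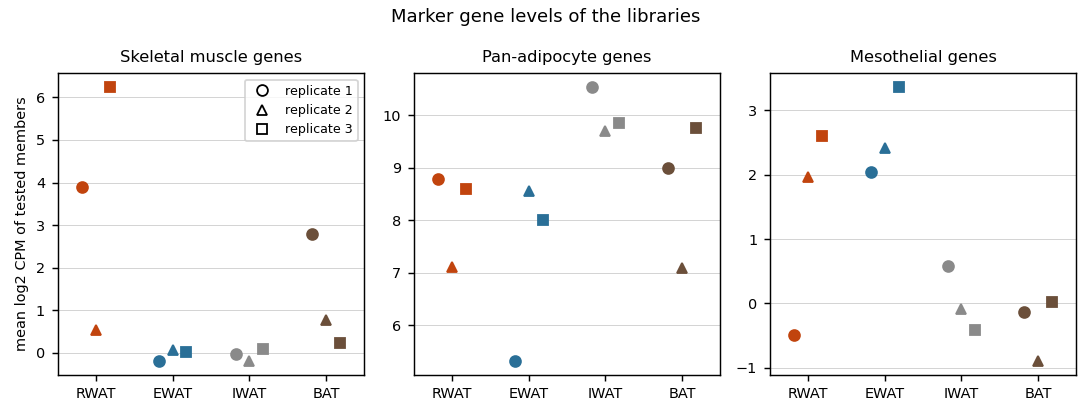
Mean log2 CPM of the tested skeletal muscle (41), pan-adipocyte (22) and mesothelial genes (18) in each library, with 1 point per library and the shape giving the replicate. RWAT 1 and RWAT 3 lie at 3.89 and 6.25 for muscle genes, EWAT 1 at 5.31 for adipocyte genes, and RWAT 1 at -0.50 for mesothelial genes.

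Across 18942 genes tested, 1 gene separated the depots: Tbx15, a T-box transcription factor of the limb and trunk mesenchyme, rose in RWAT. That is 0.00528% of the genes tested by edgeR with a Benjamini-Hochberg adjusted p below 0.05 (the adjusted p given throughout). No gene fell in RWAT by this test, and at an unadjusted edgeR p below 0.05 there were 548 genes higher (2.89%) and 309 lower (1.63%). Together these 857 genes were under the share of 0.05 that such a threshold passes when no gene differs. DESeq2 called 114 genes higher (0.602%) and 15 lower (0.0792%), and 27 of the 129 were in the skeletal muscle list, while limma-voom called 0. The median log2 fold change over all genes was -0.01, and every fold change below is RWAT minus EWAT with its standard error (SE). The libraries of 752 genes (3.97%) lay wholly higher in RWAT, and those of 716 (3.78%) wholly lower.

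**Figure D2:**
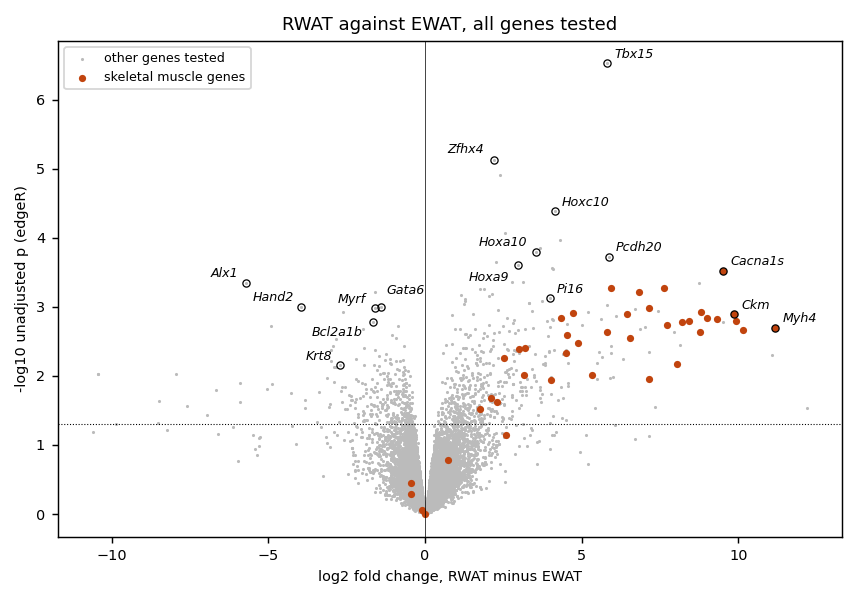
Log2 fold change (RWAT minus EWAT) of all 18942 genes against -log10 of the edgeR p, with the skeletal muscle list in orange and a dotted line at 0.05. Tbx15 stands alone at the top, with a fold change of 5.80, and the muscle genes spread to the right.

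Tbx15 (ENSMUSG00000027868, chr3:99240381-99354259, plus strand, GRCm38) stood at 19.7, 4.82 and 10.8 CPM in RWAT 1 to 3, against 0.190, 0.285 and 0.147 CPM in EWAT 1 to 3. All 3 RWAT libraries lay far higher than any EWAT library, and the EWAT values were close to the floor of 3 counts, 0.143 to 0.171 CPM there. The means were 11.8 ± 7.50 CPM in RWAT and 0.207 ± 0.071 CPM in EWAT (SD, n = 3 each). The log2 fold change was 5.80 ± 0.544 (edgeR adjusted p = 0.00562). Without the muscle-bearing RWAT 1 and RWAT 3 it was 4.51 (edgeR adjusted p = 0.00768), with the lone RWAT library taken to vary like the other groups. Without RWAT 1 alone it was 5.20 (edgeR adjusted p = 0.00348). The call ended when any EWAT library was left out, at edgeR adjusted p = 0.104 without EWAT 1, 0.0703 without EWAT 2 and 0.116 without EWAT 3. It also ended in a fit of the 6 RWAT and EWAT libraries alone (edgeR adjusted p = 0.0879) and with limma-voom (adjusted p = 0.397). Tbx15 stood at 17.2 to 23.6 CPM in IWAT and 16.4 to 23.1 CPM in BAT, so EWAT was the depot with a low level.

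Other developmental regulators differed between the same libraries without passing the adjusted edgeR test. Zfhx4, a zinc finger homeobox factor (chr3:5218526-5415857, GRCm38), stood at 36.0, 35.0 and 45.7 CPM in RWAT 1 to 3, against 7.62, 10.2 and 7.33 CPM in EWAT 1 to 3. The 6 libraries fell into separate ranges by depot. Its log2 fold change was 2.21 ± 0.286 (edgeR adjusted p = 0.0716). Meox2, a mesenchyme homeobox factor of the limb and muscle, stood at 12.6, 17.1 and 17.1 CPM in RWAT, against 8.05, 7.48 and 5.57 CPM in EWAT, with a log2 fold change of 1.15 ± 0.248 (edgeR adjusted p = 0.475).

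Of the 16 posterior Hox genes (paralogue groups 9 to 13), which mark the hind end of the body axis, 6 passed the filter on low counts, and 3 of the 6 lay wholly higher in RWAT, beside 3.97% of all genes. DESeq2 called 3 of the 6 higher and 0 lower, beside 0.602% and 0.0792% of all genes, and edgeR called 0. Hoxc10 (chr15:102966796-102971893, GRCm38) stood at 6.33, 3.00 and 3.41 CPM in RWAT 1 to 3, against 0.238, 0.171 and 0.293 CPM in EWAT 1 to 3. The lowest RWAT library was at 3.00 CPM and the highest EWAT library at 0.293 CPM. The log2 fold change was 4.14 ± 0.572 (edgeR adjusted p = 0.194). Hoxa10 (chr6:52231197-52240854, GRCm38) stood at 7.44, 3.55 and 4.02 CPM in RWAT, against 0.381, 0.400 and 0.488 CPM in EWAT, with a log2 fold change of 3.54 ± 0.641 (edgeR adjusted p = 0.378). Its neighbour Hoxa9 (chr6:52223100-52231089, GRCm38) stood at 4.64, 3.55 and 4.62 CPM in RWAT, against 0.762, 0.400 and 0.440 CPM in EWAT, with a log2 fold change of 2.98 ± 0.566 (edgeR adjusted p = 0.406). The annotated spans of these 2 genes do not overlap. The other 3 that passed the filter were nearer to each other between depots: Hoxc9 had 3.48, 2.68 and 4.78 CPM in RWAT and 1.76, 3.14 and 2.69 CPM in EWAT, and Hoxb9 and Hoxd9 had log2 fold changes of -0.97 and 0.27 (edgeR adjusted p = 0.999 for all 3). Without RWAT 1 and RWAT 3 the fold changes of Hoxc10, Hoxa10 and Hoxa9 were 3.63, 3.04 and 2.71, and the median of the list, 1.75 with every library in, was 0.08 over 7 genes.

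Hoxa9 and Hoxa10 lie side by side on the minus strand of chromosome 6, and the sequence before their RefSeq starts is shown because both genes were higher in every RWAT library than in any EWAT library. The gene spans given above are from another annotation, GENCODE M21. The windows of Hoxa9 and of the second Hoxa10 start lie inside those spans and not before them. The sequences are from RefSeq (GRCm38.p6), 250 bases each up to the base before the start, 5′ to 3′. Of the 16 posterior Hox genes, 9 had a promoter in that table. Capitals mark the CCAAT box, searched as the letters CCAAT, the GC box, searched as the letters GGGCGG, and the TATA box, searched as the letters TATAAA. Each was searched on both strands, so its reverse complement is marked as well, and no match overlapped another.
Hoxa9, chr6:52227371-52227620: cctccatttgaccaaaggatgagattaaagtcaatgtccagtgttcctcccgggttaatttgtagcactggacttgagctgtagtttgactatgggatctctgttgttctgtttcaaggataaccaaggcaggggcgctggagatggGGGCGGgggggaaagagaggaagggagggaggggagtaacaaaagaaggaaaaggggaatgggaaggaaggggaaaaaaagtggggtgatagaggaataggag
Hoxa10, first start, chr6:52240855-52241104: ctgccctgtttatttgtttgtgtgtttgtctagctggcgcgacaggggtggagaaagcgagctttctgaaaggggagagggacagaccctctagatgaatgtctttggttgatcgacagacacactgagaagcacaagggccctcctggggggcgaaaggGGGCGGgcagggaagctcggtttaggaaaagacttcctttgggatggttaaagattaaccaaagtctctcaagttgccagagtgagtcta
Hoxa10, second start, chr6:52234940-52235189: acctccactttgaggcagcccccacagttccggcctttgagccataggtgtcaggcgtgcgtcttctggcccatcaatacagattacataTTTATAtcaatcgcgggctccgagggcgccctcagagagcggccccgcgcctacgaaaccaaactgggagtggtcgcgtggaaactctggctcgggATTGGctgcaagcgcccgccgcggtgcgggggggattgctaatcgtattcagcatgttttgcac
The windows of Hoxa9 and the first Hoxa10 start each held 1 GC box, and that of the second Hoxa10 start held 1 TATA box and 1 CCAAT box. Over all 32851 RefSeq windows of the same length, 32.7% held a GC box, 33.8% a CCAAT box and 12.4% a TATA box.

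The anterior and central Hox genes (paralogue groups 1 to 8) did not share that direction. Of 20 tested, 12 had a negative fold change and the median was -0.49, beside -0.01 over all genes. None passed the adjusted edgeR test (0 called by DESeq2 as well), and 4 were lower at an unadjusted edgeR p below 0.05 (Hoxb3, Hoxb4, Hoxb7 and Hoxb8), against 1.63% of all genes. Hoxb8 had 0.145, 0.364 and 0.455 CPM in RWAT and 1.14, 0.685 and 0.586 CPM in EWAT, with a log2 fold change of -1.34 ± 0.505 (edgeR adjusted p = 0.900). Without RWAT 1, or without EWAT 1, no gene of this list reached that unadjusted p, and the median was -0.18 or -0.23. Without RWAT 3 the median was -0.85, with 5 genes lower at that p (1.09% of all genes). Without EWAT 3 it was -0.74, with 6 (1.59%).

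Other regulators had their lower values in RWAT, and those named here did not pass the adjusted edgeR test. Gata6, a zinc finger factor of visceral mesoderm and peritoneal macrophages, stood at 3.96, 9.64 and 7.58 CPM in RWAT 1 to 3, against 20.5, 18.9 and 16.9 CPM in EWAT 1 to 3. Every EWAT library was higher than every RWAT library, and the log2 fold change was -1.41 ± 0.321 (edgeR adjusted p = 0.475). Hand2, a helix-loop-helix factor of lateral mesoderm and sympathetic neurons, stood at 0, 0.227 and 0.152 CPM in RWAT, against 1.81, 3.31 and 1.07 CPM in EWAT, with a log2 fold change of -3.97 ± 0.902 (edgeR adjusted p = 0.475). Alx1, a paired-type homeobox factor of mesenchyme, had 1 count over the 3 RWAT libraries and 79 counts over the 3 EWAT libraries, a ratio of 74.8 towards EWAT (95% exact counting interval 13 to 2993). That interval leaves out the spread between libraries, and the edgeR adjusted p of Alx1 was 0.47. Wt1 stood at 0, 8.05 and 7.2 CPM in RWAT 1 to 3, against 16.7, 19.8 and 16.4 CPM in EWAT 1 to 3. It was listed at 0 in RWAT 1 and lower in the other RWAT libraries than in any EWAT library, with a log2 fold change of -1.80 ± 1.04 (edgeR adjusted p = 0.999). Of the 30 depot patterning factors tested, 1 passed the adjusted edgeR test, 5 lay wholly higher and 6 wholly lower in RWAT (3.97% and 3.78% of all genes), and 15 fold changes were positive and 15 negative. DESeq2 called 4 of the 30 higher and 2 lower, beside 0.602% and 0.0792% of all genes, and limma-voom called 0. The median of 0.09 ranged from -0.16 without RWAT 1 to 0.38 without EWAT 2.

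**Figure D3:**
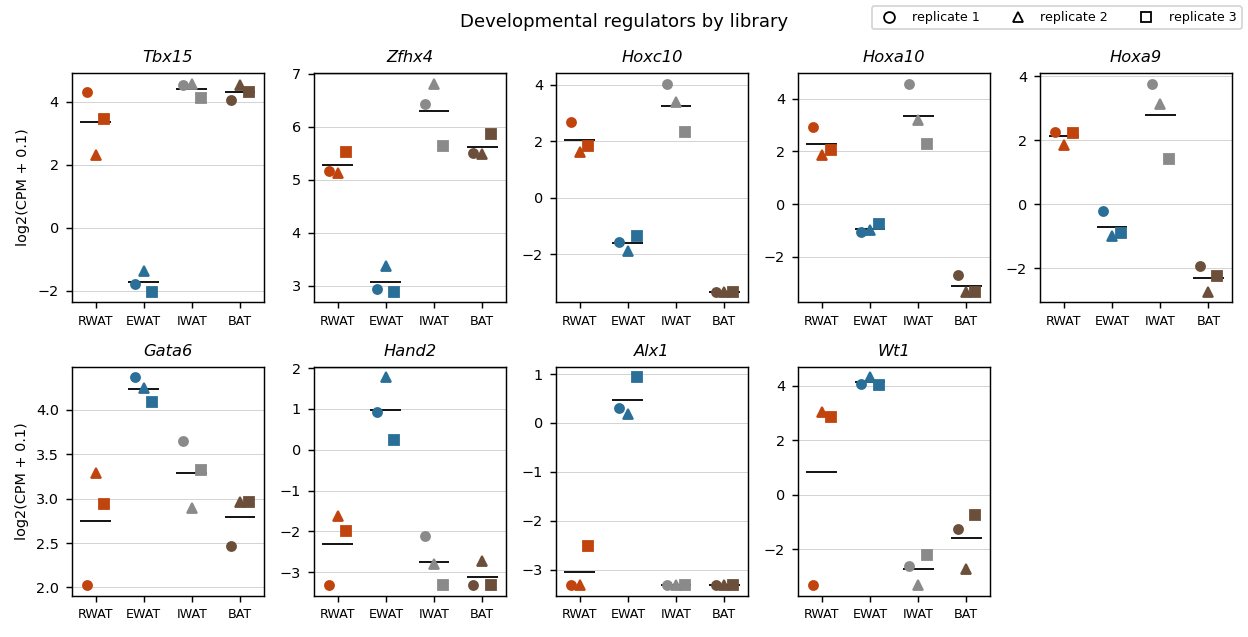
Log2(CPM + 0.1) of 9 developmental regulators in each library of the 4 depots, with the shape giving the replicate and the bar the mean of the log2 values. Tbx15, Zfhx4, Hoxc10, Hoxa10 and Hoxa9 are higher in all RWAT than in all EWAT libraries, while Gata6, Hand2, Alx1 and Wt1 are lower in all RWAT libraries.

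The same regulators were set against IWAT in the same model, a comparison that shares the RWAT or EWAT libraries with the one above. In EWAT against IWAT, 9.03% of all genes passed the edgeR test, and Tbx15 fell by 6.65 on the log2 scale (edgeR adjusted p = 0.00166), Zfhx4 by 3.30 (edgeR adjusted p = 0.0019) and Hoxc10 by 5.44 (edgeR adjusted p = 0.00726). Hoxa10 fell by 4.86 (edgeR adjusted p = 0.0114) and Hoxa9 by 3.93 (edgeR adjusted p = 0.0121). In RWAT against IWAT their log2 fold changes were -0.85, -1.09, -1.30, -1.31 and -0.95 in the same order, with edgeR adjusted p of 0.137 to 0.317, and no gene of the 18942 passed. In BAT the Hox genes were near 0, at 0 CPM for Hoxc10 and 0.0178 CPM for the mean of Hoxa10, while Tbx15 and Zfhx4 were at means of 19.7 and 49.5 CPM.

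The widest fold changes belonged to skeletal muscle genes, which encode the contractile and calcium-handling proteins of the fibre. Of 46 in the list, 41 were tested, 0 passed the adjusted edgeR test, 35 were higher at an unadjusted edgeR p below 0.05 (2.89% of all genes), 16 lay wholly higher, DESeq2 called 27 and limma-voom 0. The median log2 fold change was 5.81. Without RWAT 1 and RWAT 3 it was 0.45, so the size of the median difference rests on those 2 libraries. Without RWAT 3 alone it was 3.11. Ckm, the muscle creatine kinase, stood at 60.4, 0.182 and 338 CPM in RWAT 1 to 3, against 0.143, 0.228 and 0.0488 CPM in EWAT 1 to 3. RWAT 2 lay among the EWAT libraries, and the log2 fold change was 9.86 ± 2.32 (edgeR adjusted p = 0.475). Acta1, the skeletal actin, stood at 90.0, 5.73 and 507 CPM in RWAT, against 3.67, 2.97 and 4.10 CPM in EWAT, with a log2 fold change of 5.81 ± 1.49 (edgeR adjusted p = 0.486). Ttn, the giant spring protein of the sarcomere, stood at 336, 36.7 and 2380 CPM in RWAT, against 5.0, 6.28 and 2.83 CPM in EWAT. Here RWAT 2 was also higher than all EWAT libraries. Cacna1s, the voltage sensor of excitation-contraction coupling, had 730 counts over the RWAT libraries and 1 over the EWAT libraries, a ratio of 771 (95% exact counting interval 138 to 30480). That interval leaves out the spread between libraries, and the edgeR adjusted p of Cacna1s was 0.407.

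The muscle transcripts of RWAT 1 and RWAT 3 spanned most of the list. Of the 41 genes, 40, 21 and 39 reached 1 CPM in RWAT 1 to 3, against 15, 16 and 16 in EWAT 1 to 3. Over the 32 genes with at least 5 CPM in RWAT 1, the level in RWAT 3 was a median of 5.70 times that in RWAT 1, with quartiles of 4.63 and 6.16 and a range of 1.53 to 13.4. Fibre types are told apart by myosin heavy chains, compared here in length-scaled transcript abundance (TPM), which accounts for length. Myh4, the fast glycolytic IIB form, had 39.5, 0.08 and 140 TPM in RWAT 1 to 3, against 0, 0 and 0.08 TPM in EWAT 1 to 3. Myh1, the fast IIX form, had 2.5, 0.31 and 34.4 TPM in RWAT, and Myh2, the IIA form, had 0.26, 0.19 and 4.47 TPM. Myh7, the slow form, had 0, 0.26 and 0.02 TPM in RWAT, so the myosin transcripts of RWAT 1 and RWAT 3 were mainly of fast forms, led by Myh4. Relative to Myh4, both Myh1 and Myh2 were higher in RWAT 3 than in RWAT 1. BAT 1 also held muscle transcripts, with 38 of the 41 genes at 1 CPM or more.

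Fibroblast progenitor genes had a positive fold change in 24 of 29 tested. None passed the adjusted edgeR test (0 called), and 9 were higher and 1 lower at an unadjusted edgeR p below 0.05, beside 2.89% and 1.63% of all genes. Wholly higher were 7 and wholly lower 2, beside 3.97% and 3.78% of all genes, and DESeq2 called 3 higher, beside 0.602%. The median log2 fold change was 0.66. It was 1.10 without EWAT 2, with 12 genes higher at that unadjusted p (4.56% of all genes). Without RWAT 2 there were 11 such genes (3.71%). There were 5 without RWAT 3 or EWAT 3 (1.8% and 2.3%), and 6 without EWAT 1 (2.67%). Pi16, a surface marker of early interstitial progenitors, stood at 146, 19.2 and 100 CPM in RWAT 1 to 3, against 4.48, 8.91 and 3.47 CPM in EWAT 1 to 3. RWAT 2 was the lowest of its depot and still higher than every EWAT library, with a log2 fold change of 3.98 ± 0.872 (edgeR adjusted p = 0.475). Dpp4, a peptidase of the same progenitors, stood at 47.8, 14.4 and 47.1 CPM in RWAT, against 4.0, 8.91 and 11.6 CPM in EWAT, with a log2 fold change of 2.16 ± 0.574 (edgeR adjusted p = 0.530). Ly6a, the Sca-1 antigen of stromal progenitors, stood at 167, 87.2 and 157 CPM in RWAT, against 42.9, 44.0 and 55.2 CPM in EWAT. In RWAT 2 alone against EWAT the fold changes of Pi16, Dpp4 and Ly6a were 1.77, 0.82 and 0.87, smaller than with RWAT 1 and RWAT 3, the muscle-bearing libraries, whose part in these values was not tested. Sfrp1, a secreted Wnt antagonist, went the other way, with 8.31, 10.8 and 10.6 CPM in RWAT and 28.8, 40.3 and 20.3 CPM in EWAT (log2 fold change -1.59 ± 0.444, edgeR adjusted p = 0.602).

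Secreted signals and matrix proteins were among the smallest p-values. Dkk2, a Wnt antagonist of the Dickkopf family, stood at 24.5, 11.5 and 19.6 CPM in RWAT 1 to 3, against 1.38, 0.571 and 1.27 CPM in EWAT 1 to 3. The depots were separated in every library, with a log2 fold change of 4.09 ± 0.790 (edgeR adjusted p = 0.406), and 3.40 without RWAT 1 and RWAT 3. RWAT held the highest Dkk2 of the depots, with a mean of 18.5 CPM against 7.81 CPM in IWAT and 4.87 CPM in BAT, but RWAT minus IWAT was 1.24 (edgeR adjusted p = 0.340). Thbs4, a thrombospondin of tendon and muscle matrix, stood at 14.5, 6.86 and 7.66 CPM in RWAT, against 0.809, 0.514 and 0.391 CPM in EWAT, with a log2 fold change of 4.06 ± 0.782 (edgeR adjusted p = 0.406). Mmp3, the matrix protease stromelysin, stood at 35.0, 15.5 and 5.31 CPM in RWAT, against 0.667, 0.856 and 1.27 CPM in EWAT, with a log2 fold change of 4.31 ± 0.746 (edgeR adjusted p = 0.343). Dkk2, Thbs4 and Mmp3 all had their highest value in RWAT 1, a library with muscle transcripts. All 3 were lower in RWAT 3, where the mean log2 CPM of muscle genes was 6.25 against 3.89 in RWAT 1. Mmp3 was lowest of the RWAT libraries there, and the part of muscle in these values was not tested. Without RWAT 1 and RWAT 3 the fold changes of Thbs4 and Mmp3 were 3.57 and 4.04. Of the 27 Wnt pathway genes tested, 6 were higher and 2 lower at an unadjusted edgeR p below 0.05 (2.89% and 1.63% of all genes), with a median of 0.31 that was 0.02 without RWAT 3 and 0.07 without EWAT 3. Inhba, the activin A subunit, lay on the EWAT side with 2.13, 3.18 and 1.59 CPM in RWAT and 37.7, 9.65 and 5.13 CPM in EWAT, highest in the adipocyte-poor EWAT 1 (log2 fold change -2.91 ± 0.981, edgeR adjusted p = 0.814). It was -1.67 without EWAT 1. Collagens showed no common direction, with a median of -0.04 over 25 genes (0.41 without EWAT 1 and -0.23 without EWAT 3) and 0 passing the adjusted edgeR or DESeq2 test (2 lower at an unadjusted edgeR p below 0.05, Col4a5 and Col4a6 of basement membrane).

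Further genes with small p-values were chosen after their values were seen, apart from Pcdh20, which was among the genes always given. Adcy2, an adenylyl cyclase, had 3.04, 3.27 and 5.15 CPM in RWAT and 0.762, 0.514 and 0.635 CPM in EWAT (log2 fold change 2.56 ± 0.431, edgeR adjusted p = 0.320). Pcdh20, a protocadherin adhesion protein, had 9.09, 1.18 and 2.73 CPM in RWAT and 0.0952, 0.114 and 0 CPM in EWAT (5.86 ± 1.08, edgeR adjusted p = 0.394). Gfra2, the neurturin receptor, had 11.9, 8.05 and 15.2 CPM in RWAT and 3.76, 5.08 and 1.56 CPM in EWAT. Among lower genes, Myrf, a membrane-bound transcription factor, had 2.95, 7.18 and 6.37 CPM in RWAT and 11.1, 18.2 and 21 CPM in EWAT (-1.61 ± 0.369, edgeR adjusted p = 0.475), and Dsg2, a desmosome cadherin, had 0.145, 0.955 and 0.606 CPM in RWAT and 2.29, 3.14 and 5.13 CPM in EWAT. The antisense gene Plxna4os1 had 1.55, 2.00 and 2.35 CPM in RWAT and 5.09, 8.51 and 4.05 CPM in EWAT, and without stated strand its reads cannot be told apart from those of an overlapping gene.

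Mesothelial genes were lower in RWAT by their median, -0.99 over 18 genes, with 0 passing the adjusted edgeR test, 6 wholly lower and 1 wholly higher (3.78% and 3.97% of all genes), and 4 lower and 2 higher at an unadjusted edgeR p below 0.05 (1.63% and 2.89%). Without RWAT 1 the median was -0.64 over 19 genes, with the same counts in each of these classes. The shares of all genes in that setting were 6.92% wholly lower and 7.66% wholly higher. At that unadjusted p they were 1.2% lower and 2.34% higher. The median of the list was -1.71 without RWAT 3 and -0.45 without EWAT 3. Krt8, a simple epithelial keratin, stood at 0.242, 6.27 and 2.96 CPM in RWAT 1 to 3, against 10.8, 14.8 and 37.1 CPM in EWAT 1 to 3. Its partner Krt18 stood at 0.145, 1.64 and 1.21 CPM in RWAT, against 4.0, 4.34 and 14.3 CPM in EWAT. RWAT 1 was lowest and EWAT 3 highest for both, with log2 fold changes of -2.72 ± 0.829 and -2.92 ± 0.896 (edgeR adjusted p = 0.695 and 0.711). The defining surface genes overlapped: Msln, mesothelin, stood at 0.338, 2.36 and 12 CPM in RWAT and 5.33, 2.23 and 10.7 CPM in EWAT, and Upk3b, a uroplakin of mesothelium, at 0.193, 4.82 and 15.8 CPM in RWAT and 2.95, 6.68 and 17.5 CPM in EWAT. Of the 5 list members with a positive fold change, the 2 with an unadjusted edgeR p below 0.05, Dpp4 and Igfbp6, are also expressed by progenitors, and DESeq2 called Dpp4. Smooth muscle and mural genes had no common direction, with 7 positive and 8 negative fold changes over 15 and a median of -0.10 that was 0.25 without EWAT 1 and -0.28 without EWAT 3. At an unadjusted edgeR p below 0.05, 4 were lower (1.63% of all genes) and 1 higher (2.89%), the pericyte channel subunit Abcc9, with 2 wholly lower (3.78%) and 1 called lower by DESeq2 (0.0792%). The 4 lower were Cnn1, Tagln, Lmod1 and Mylk, with log2 fold changes of -3.00, -1.89, -1.35 and -0.88 (edgeR adjusted p = 0.602 to 0.869). Cnn1, calponin, had 1.69, 4.27 and 0.910 CPM in RWAT and 26.2, 25.7 and 4.05 CPM in EWAT, with an overlap through RWAT 2 and EWAT 3 (log2 fold change -3.00 ± 0.842, edgeR adjusted p = 0.602).

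Adipocyte genes gave no call in any list. Of 22 pan-adipocyte genes, 0 passed edgeR's adjusted test, 0 had an unadjusted edgeR p below 0.05 and DESeq2 and limma-voom called 0, with a median of 0.40. That median was -0.05 without EWAT 1, 0.04 without RWAT 1 and 0.95 without EWAT 2, the library with 15.3% 7SL RNA. Lep, the satiety hormone leptin, stood at 633, 192 and 672 CPM in RWAT 1 to 3, against 13, 785 and 308 CPM in EWAT 1 to 3. Adipoq, adiponectin, stood at 877, 231 and 893 CPM in RWAT, against 34.8, 1007 and 301 CPM in EWAT. Both had their lowest value in EWAT 1, the depots overlapped, and the log2 fold changes were 0.44 ± 1.10 and 0.58 ± 1.03 (edgeR adjusted p = 0.999 for both). Without EWAT 1 they were -0.13 and 0.03, and without EWAT 2 they were 1.63 and 1.98. Lipogenic and adipokine genes had medians of 0.17 over 22 and 0.24 over 21, with 0 at an unadjusted edgeR p below 0.05 in either list. The lipogenic median was -0.08 without RWAT 1 and 0.36 without EWAT 3, and the adipokine median was -0.08 without RWAT 3 and 0.57 without EWAT 2. All 19 lipolysis genes had a positive fold change (median 0.57), and 1, the natriuretic peptide receptor Npr1, had an unadjusted edgeR p below 0.05 (2.89% of all genes). The median was 0.24 without EWAT 1, 0.32 without RWAT 3 and 1.16 without EWAT 2. The values of Npr1 were 30.0, 22.0 and 47.1 CPM in RWAT and 10.7, 26.1 and 15.4 CPM in EWAT. Without RWAT 1 and RWAT 3 the lipolysis median was -0.48 and the pan-adipocyte median -0.76.

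Thermogenic genes had a median of 0.73 over 21, with 0 passing edgeR's adjusted test, 1 called by DESeq2 and 3 higher at an unadjusted edgeR p below 0.05, beside 2.89% of all genes. The median was 0.42 without EWAT 1 and 0.44 without RWAT 3, with 1 gene at that unadjusted p in each case (2.67% and 1.8% of all genes). Without EWAT 2 there were 4 such genes (4.56%). The median was 0.04 without both RWAT 1 and RWAT 3. Ucp1, the uncoupling protein of brown and beige fat, stood at 0.338, 1.5 and 0.455 CPM in RWAT, against 0.0952, 0.0571 and 2.20 CPM in EWAT. Of the 12 libraries, BAT 1 alone was high, and the next was IWAT 2 at 8.66 CPM. The 2 white depots overlapped, with a fitted log2 fold change of -0.01 ± 2.40 (edgeR adjusted p = 1.00). Lhx8, a homeobox factor of brown fat, had 56 counts over the RWAT libraries, 51 of them in RWAT 1, and 0 counts in EWAT, at least 19.7-fold higher against a floor of 3 counts over the group. Its edgeR adjusted p was 0.604. Ebf2, a regulator of beige and brown precursors, stood at 26.8, 20.6 and 43.1 CPM in RWAT, against 13.2, 19.8 and 11.2 CPM in EWAT (log2 fold change 1.03 ± 0.410, edgeR adjusted p = 0.939).

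**Figure D4:**
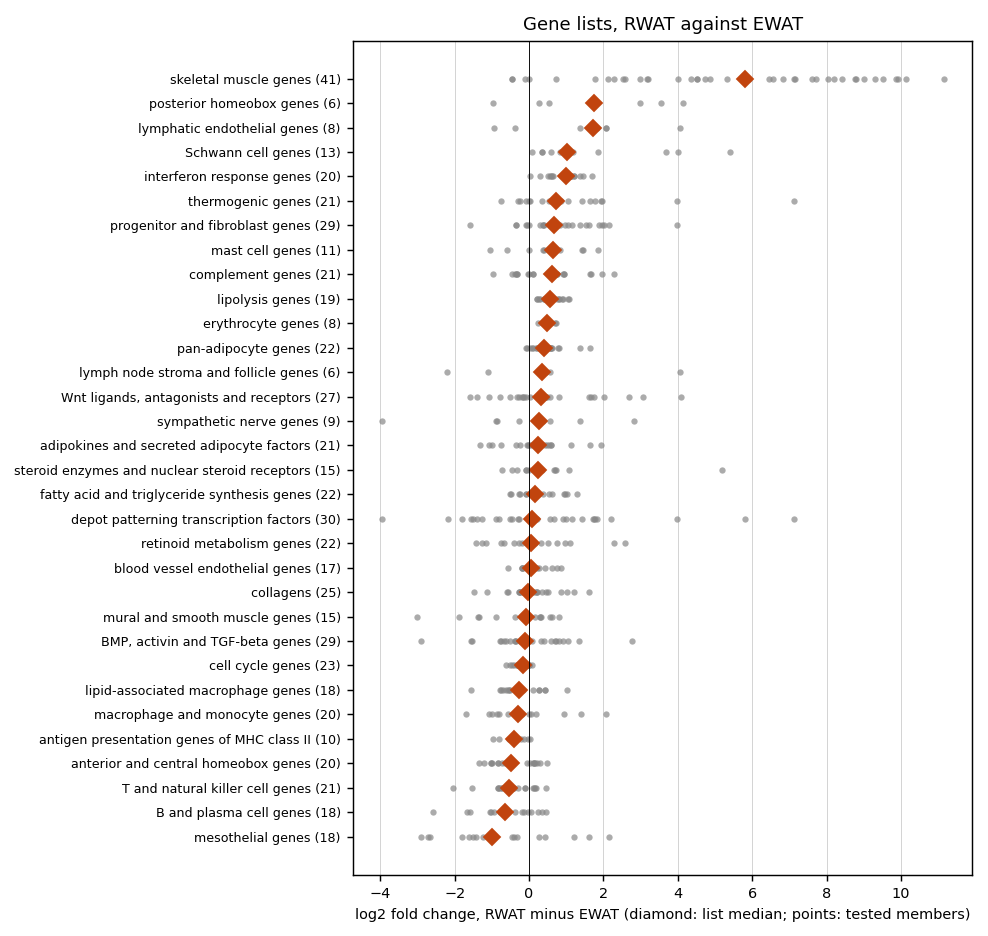
Log2 fold change (RWAT minus EWAT) of the tested members (points) and median (diamond) of each list with at least 6 tested members, with the number tested in parentheses. Skeletal muscle genes have a median of 5.81, posterior Hox genes 1.75 and lymphatic endothelial genes 1.72, and mesothelial genes lie lowest at -0.99.

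Immune genes differed by class. Of 20 macrophage and monocyte genes tested, 0 passed the adjusted edgeR test, 3 were higher and 3 lower at an unadjusted edgeR p below 0.05, 3 lay wholly higher and 4 wholly lower, and the median was -0.31. The shares of all genes in these classes were 2.89%, 1.63%, 3.97% and 3.78%. Without EWAT 1 the counts at that unadjusted p were 1 higher and 2 lower (2.67% and 1.81% of all genes). The median was -0.10 without EWAT 3. Lyve1, a hyaluronan receptor of resident macrophages and lymphatic vessels, stood at 58.1, 41.7 and 87.3 CPM in RWAT 1 to 3, against 13.2, 25.7 and 5.47 CPM in EWAT 1 to 3. Mrc1, the mannose receptor CD206, stood at 892, 904 and 522 CPM in RWAT, against 326, 382 and 512 CPM in EWAT. Both were wholly higher in RWAT, with log2 fold changes of 2.08 ± 0.664 and 0.93 ± 0.321 (edgeR adjusted p = 0.775 and 0.819). Lyz2, lysozyme, stood at 4315, 2847 and 3814 CPM in RWAT, against 6430, 8224 and 5421 CPM in EWAT (-0.87 ± 0.322, edgeR adjusted p = 0.895), and was the 1 gene of the list called by DESeq2 (adjusted p = 0.0164). Cx3cr1, the fractalkine receptor, stood at 9.81, 31.2 and 4.85 CPM in RWAT, against 59.9, 42.7 and 48.1 CPM in EWAT (-1.71 ± 0.666, edgeR adjusted p = 0.911). Bcl2a1b, an antiapoptotic gene of myeloid cells with near-identical copies, so that its count is uncertain, stood at 37.1, 40.1 and 23.0 CPM in RWAT, against 106, 113 and 95.7 CPM in EWAT. Genes of lipid-associated macrophages had a median of -0.26 over 18 (-0.64 without EWAT 1 and 0.16 without EWAT 3), and Spp1, osteopontin, stood at 1086, 2121 and 625 CPM in RWAT and 4515, 2132 and 4579 CPM in EWAT, where RWAT 2 and EWAT 2 nearly met. T and natural killer cell genes (21) and B cell genes (18) had medians of -0.54 and -0.65, with 0 at an unadjusted edgeR p below 0.05 and 3 wholly lower in each list, beside 3.78% of all genes. Without EWAT 1 the B cell median was -0.38, and without RWAT 1 it was also -0.38.

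Interferon response genes all had a positive fold change, 20 of 20, with a median of 0.98, 7 wholly higher and 4 higher at an unadjusted edgeR p below 0.05, beside 3.97% and 2.89% of all genes. None passed the adjusted edgeR test, and DESeq2 called 0. Oas2, a sensor of double-stranded RNA, stood at 32.3, 27.2 and 32.6 CPM in RWAT 1 to 3, against 10.5, 16.8 and 12.4 CPM in EWAT 1 to 3. Mx2, an antiviral GTPase, stood at 8.26, 4.86 and 5.76 CPM in RWAT, against 1.90, 3.08 and 2.00 CPM in EWAT. The log2 fold changes were 1.21 ± 0.337 and 1.44 ± 0.568 (edgeR adjusted p = 0.602 and 0.939). Without RWAT 1, or without EWAT 1, 1 gene of the list had an unadjusted edgeR p below 0.05 (2.34% and 2.67% of all genes). The median was then 0.60 or 0.96. Without EWAT 2 there were 2 such genes (4.56%), and without RWAT 3 or EWAT 3 there were 5 (1.8% and 2.3%).

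Lymphatic endothelial genes had a positive fold change in 6 of 8 tested, with 4 wholly higher (3.97% of all genes), a median of 1.72, 0 past the adjusted edgeR test and 1 called by DESeq2. Prox1, the defining transcription factor of lymphatic vessels, stood at 0.532, 0.546 and 0.985 CPM in RWAT, against 0.0952, 0.228 and 0.244 CPM in EWAT. Reln, reelin, stood at 3.58, 1.27 and 1.67 CPM in RWAT, against 0.381, 0.799 and 0.391 CPM in EWAT. Their log2 fold changes were 1.81 ± 0.730 and 2.06 ± 0.580 (edgeR adjusted p = 0.942 and 0.604). Flt4, the lymphatic growth factor receptor, went the other way with 4.69, 7.91 and 9.17 CPM in RWAT and 30.4, 5.14 and 6.25 CPM in EWAT, where EWAT 1 stood apart. The summed level of the list overlapped, at 204 to 256 CPM in RWAT and 159 to 207 CPM in EWAT, and its chemokine Ccl21a has near-identical copies, so that its count is uncertain. Blood vessel endothelial genes had a median of 0.05 over 17, which was 0.50 without EWAT 1 and -0.20 without EWAT 3.

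Schwann cell genes, which encode the sheath of peripheral axons, had a positive fold change in 13 of 13 tested, with a median of 1.01, 0 past the adjusted edgeR or DESeq2 test, 3 higher at an unadjusted edgeR p below 0.05 (2.89% of all genes) and 4 wholly higher (3.97%). Without RWAT 1, or without EWAT 1, 1 gene reached that unadjusted p (2.34% and 2.67% of all genes). Without RWAT 2 there were 4 such genes (3.71%). Cdh19, a cadherin of the Schwann cell lineage, stood at 1.69, 0.318 and 0.834 CPM in RWAT 1 to 3, against 0, 0.114 and 0.0977 CPM in EWAT 1 to 3. All 3 RWAT libraries were above all 3 EWAT libraries, with the highest value in RWAT 1, and the log2 fold change was 3.67 ± 1.29 (edgeR adjusted p = 0.847). Without RWAT 1 and RWAT 3 the fold change of Cdh19 was 2.11, and the median of the list was 0.27. Sympathetic nerve genes had a median of 0.27 over 9, whose sign did not hold: it was -0.26 without RWAT 3 and 0.64 without EWAT 1, and 13 of 22 alternatives moved it by more than the spread between replicates. Th, the noradrenaline-making enzyme, had 0 counts in RWAT and 1 in EWAT.

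**Figure D5:**
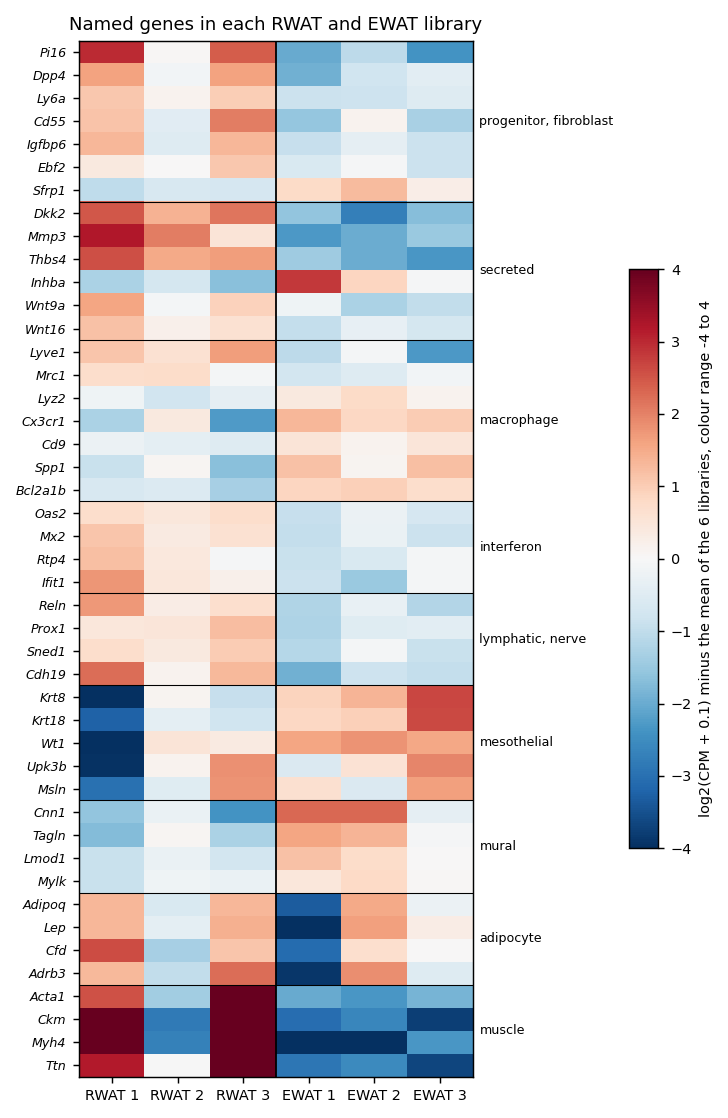
Log2(CPM + 0.1) of 45 named genes in each RWAT and EWAT library, minus the mean of the 6 libraries for the gene, with colours limited to the range -4 to 4. Dkk2, Thbs4 and Lyve1 are higher in all 3 RWAT libraries, while muscle genes are high in RWAT 1 and RWAT 3 and adipocyte genes are low in EWAT 1.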

How the data were processed

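RNA abundance was measured in 12 libraries, 3 per depot, grouped by their titles. Per the submitters' processing notes, reads were handled with Trimmomatic 0.36, RSEM 1.3.0 and DESeq2 1.10.1 on GRCm38.p4. Which aligner and annotation release were used is not given in the sources used here. As deposited, the tables hold, per the file headers, RSEM expected counts, which are estimated read counts with no scaling between libraries, and TPM, abundance per transcript scaled by effective length. TPM was used only for the myosin forms. Each table held 47729 genes, of which 47310 IDs were in GENCODE M21 (GRCm38), the source of symbols and positions. List symbols matched for 738 of 741 memberships of 36 lists.

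The expected counts were rounded, and edgeR 4.0.16 kept 18942 genes by filterByExpr at a minimum count of 10. Libraries were scaled by TMM (factors 0.846 to 1.14) and tested with the two-sided edgeR quasi-likelihood F test in 1 model of all 12 libraries with a coefficient per depot, adjusted by Benjamini-Hochberg, threshold 0.05. The SE is the absolute log2 fold change divided by the root of F. The common biological coefficient of variation was 0.385. Mean log2 CPM of a list used a prior count of 2. The floor of 3 counts equals 0.136 to 0.227 CPM in RWAT and 0.143 to 0.171 CPM in EWAT. Reads had no stated molecular identifiers, so counting error alone is covered by intervals and floors. R 4.3.3 and Python 3.11.15 were used.

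The groups, lists and genes were chosen with earlier results of these data known. Named genes were those with the largest changes among called genes with at least 5 CPM, up to 4 members of each list with the smallest p (below 0.05), 11 genes always given (Tbx15, Wt1, Hoxa10, Hoxc10, Lep, Adipoq, Ucp1, Pcdh20, Inmt, Acta1 and Ckm), and others chosen after their values were seen, among them Zfhx4, Mmp3, Thbs4, Adcy2, Myrf, Dsg2, Alx1, Gfra2, the myosins, Msln and Spp1. Some genes are not reported here. Inmt, a methyltransferase, had 2.85, 0.364 and 1.52 CPM in RWAT and 0.0476, 0.343 and 0.586 CPM in EWAT (edgeR adjusted p = 0.999). Alternatives were RLE size factors, DESeq2 1.42.0, voom of limma 3.58.1, no filter, at least 1 CPM in 3 libraries, only the 6 libraries compared, the replicate number as a block, a log2 fold change of at least 1, leaving out each library, leaving out RWAT 1 and RWAT 3, and muscle genes left out of the library sizes.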

Additional observations from a re-analysis of the deposited data

How the results depend on the processing

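Muscle, mesothelial and adipocyte transcripts varied between libraries of 1 depot, and values near the floor of 3 counts carry wide counting error. The count of called genes, 1 (1 higher, 0 lower), was 2 higher with RLE size factors, 4 higher without a filter, 129 by DESeq2 (114 higher, 15 lower), 0 by limma-voom and 0 in the fit of only the RWAT and EWAT libraries. It was 1 with the replicate number as a block. Same-numbered RWAT and EWAT libraries did not deviate together from their depot means (r = -0.246, -0.341 and -0.292). For unlike numbers r ranged from -0.152 to 0.420. With 3 libraries per depot, these values cannot decide whether the numbers pair the samples. Tbx15 had an edgeR adjusted p of 0.0463 with the block. Leaving out 1 library at a time gave 0 to 2 called, 0 to 2 higher and 0 to 1 lower, the lower one being Rps16 without RWAT 3. Zfhx4 was also called with RLE and without IWAT 2 or IWAT 3, and Zfhx4 and Hoxc10 without a filter. Of 94 genes followed through up to 22 alternatives, 86 kept their direction in all in which they were tested. Many were named for a small p in these same data, and the limit on fold change left the fitted values unchanged. A kept direction is therefore no independent support. The log2 fold change of Ucp1, -0.01, was 0.011 with the 1 CPM filter, 1.20 with limma-voom and 0.90 without RWAT 1 and RWAT 3. In that setting it was -0.72 for Bmp7, -1.22 for Cfd, -1.53 for Adrb3, -0.95 for Adipoq and -0.94 for Lep, all positive with every library in. The cause of these changes was not tested. Leaving out 1 library gave -0.13 to 1.63 for Lep, -1.85 to 0.52 for Upk3b, -2.17 to 0.35 for Msln and -1.02 to 3.24 for Ucp1.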

Other observations

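Other genes that DESeq2 called higher in RWAT, and that edgeR did not, were read out after their values were seen. Retnla, a secreted protein of alternatively activated macrophages, stood at 128, 10.3 and 22.0 CPM in RWAT 1 to 3, against 1.24, 5.14 and 2.83 CPM in EWAT 1 to 3. Cd209d, a lectin of macrophages with near-identical relatives, so that its count is uncertain, stood at 13.5, 3.00 and 7.81 CPM in RWAT, against 0.0952, 1.08 and 0.537 CPM in EWAT. Apod, an apolipoprotein of fibroblasts and nerve sheaths, stood at 37.0, 3.82 and 20.8 CPM in RWAT, against 0.619, 1.71 and 1.32 CPM in EWAT. All 3 genes were wholly higher in RWAT and lowest there in RWAT 2.

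Some transcripts set RWAT 1 apart from the other RWAT libraries. Shox2, a homeobox factor of the limb, stood at 11.4, 0.636 and 0.682 CPM in RWAT 1 to 3, against 0.428, 0.114 and 0.244 CPM in EWAT 1 to 3, and at a mean of 17.1 CPM in IWAT. Pax3, a paired-box factor of dermomyotome, had 3, 48 and 41 counts in RWAT 1 to 3, against 1 in each EWAT library, a ratio of 32.4 over the summed counts (95% exact counting interval 10.7 to 160). That interval covers counting error alone and not the spread between libraries. Pax3 did not pass the filter on low counts and was not tested. Erythrocyte genes set EWAT 1 apart: the mean log2 CPM of 8 genes was 7.87, 7.79 and 6.72 in RWAT 1 to 3, against 8.21, 5.72 and 5.61 in EWAT 1 to 3. The median log2 fold change of the list was 0.48 with every library in, 1.88 without EWAT 1 and 0.08 without EWAT 3. Without EWAT 1, 8 of the 8 had an unadjusted edgeR p below 0.05, beside 2.67% of all genes, against 0 of 8 with every library in. No gene passed the adjusted edgeR test in that setting. EWAT 1 was singled out by the level of these same genes, so this count is no independent support for a depot difference.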
